A study of Mus musculus with 2 samples.

Results

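The genes described here are 6 interferon regulatory factors, Irf1, Irf2, Irf3, Irf4, Irf5 and Irf8, taken by their symbols from the 31053 genes counted in single cells of the mouse colon lamina propria. Irf7 and Irf9, of the same family, were not among the members. Interferon regulatory factors are DNA-binding proteins that bind short GAAA-containing elements in the promoters of interferon and interferon-stimulated genes. IRF3 and IRF5 sit in the cytoplasm of resting cells and enter the nucleus after microbial nucleic acids or Toll-like receptor ligands are sensed. IRF1 is induced by interferon-gamma and switches on antigen processing genes, and IRF2 competes with it for the same elements. IRF4 and IRF8 are best known from immune cells and act with partners such as PU.1 and BATF proteins. Among conventional dendritic cells, IRF8 is required for the cross-presenting cDC1 lineage and IRF4 for functions of the cDC2 lineage, and IRF4 is also needed for plasma cells.

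Cells came from the colon lamina propria of 8-week-old male mice, pooled before sequencing, with a legend value of 6 mice that does not say whether it holds for each genotype. One library was made from wild-type (WT) mice and one from mice labelled LncRNA17Rik knockout (KO), a CRISPR-Cas9 deletion on a C57BL/6J background of the long non-coding RNA that the study calls lncLy6c. The study used the pair to ask how loss of this RNA changes gut macrophages. With 1 library per genotype no difference between WT and KO has a replicate check, so values are given with 95% intervals that cover counting error only, and no test between genotypes was made.

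After filtering, 2597 WT and 2514 KO cells were kept, with a median of 5073 and 6564 unique molecular identifiers (UMIs, each marking 1 captured RNA molecule) per cell. No cell barcode was shared between the kept cells of both libraries. Both libraries are labelled cd11b+, but Itgam, the gene of CD11b, had a UMI in 68.7% of WT inflammatory monocyte-like cells and in only 13.6% of T cell-like, 12.6% of B cell-like and 0% of mature dendritic cell-like (mature DC-like) WT cells. Plasma cell-like and epithelial-like cells were 235 and 119 in WT against 5 and 14 in KO. No feature in the files carries the name LncRNA17Rik or lncLy6c, so the deletion could not be checked from its own transcript. Cells were grouped into 13 classes by marker genes that include no interferon regulatory factor, and a small remainder (5.85% in WT, 3.10% in KO) could not be named. Levels are given as CPM, the UMIs of a gene per 1000000 UMIs of a class.

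The promoters of 3 of the 6 members hold a GAS element, the interferon-gamma activated site. It was searched as TTCNNNGAA on both strands in the 250 bases before each annotated start (RefSeq, GRCm38.p6), where 7.02% of 32851 such windows hold it. The core of the interferon-stimulated response element, spelled GAAA, any 2 bases and GAAA, was found in 2.98% of windows and the composite ETS-IRF element used by IRF4 and IRF8 with PU.1, spelled GGAA, any 2 bases and GAAA, in 2.30%. The stretches of 30 bases below are shown because Irf1, Irf2 and Irf8 are the members with a match, and B2m, Gbp2 and Cxcl10 are genes downstream of the family whose levels are given further on. Capitals mark the match, and each line reads 5′ to 3′ on the strand of the gene.
Irf1 GAS: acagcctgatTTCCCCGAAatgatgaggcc
Irf2 GAS: aaattgacttTTCCGAGAAatgatgaaagc
Irf2 response element core: tggggaagtGAAAATGAAAttgacttttcc
Irf2 ETS-IRF composite: tggGGAAGTGAAAatgaaattgacttttcc
Irf8 GAS, distal: caaaagtgatTTCTCGGAAagagagcgctt
Irf8 GAS, proximal: aagagagcgcTTCAGAGAAggcggatttgg
B2m response element core: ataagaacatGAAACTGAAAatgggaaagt
Gbp2 response element core, reverse strand: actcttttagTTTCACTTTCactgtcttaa
Cxcl10 response element core: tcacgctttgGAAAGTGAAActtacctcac

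Coordinates are those of the printed stretches. The Irf1 GAS stretch is chr11:53769914-53769943, and its match begins 90 bases before the annotated start. The Irf2 GAS stretch is chr8:46739511-46739540, with a match that begins 224 bases before it. Irf8 held a pair of GAS matches, in the stretches chr8:120736177-120736206 and chr8:120736195-120736224, and the matches begin 171 and 153 bases before the start. Irf2 was the only member with a response element core, and its composite match overlaps that core (stretch chr8:46739495-46739524 for both). No match to the 3 motifs lay in the windows of Irf3, Irf4 and Irf5. Of 8 interferon-stimulated genes with a window, 6 held the response element core. Of 7 genes with a window in the antigen processing list, which includes the GTPase Gbp2, B2m (stretch chr2:122147538-122147567) and Gbp2 (stretch chr3:142620594-142620623) held it. The Cxcl10 stretch is chr5:92349083-92349112. A match is a description of letters and not of binding.

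All 6 genes are protein-coding and lie on the plus strand (GRCm38), Irf1 on chromosome 11 from 53770014 to 53778374, Irf2 and Irf8 on chromosome 8 from 46739732 to 46847458 and from 120736358 to 120756694, Irf3 on chromosome 7 from 44997648 to 45002848, Irf4 on chromosome 13 from 30749226 to 30766976 and Irf5 on chromosome 6 from 29526625 to 29541871. Irf8 was the most counted, with 3777 UMIs in WT and 4261 in KO, and Irf3 the least, with 353 and 324. The libraries count 3′ ends, so UMI counts were compared between genes without a correction for length.

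**Figure D1:**
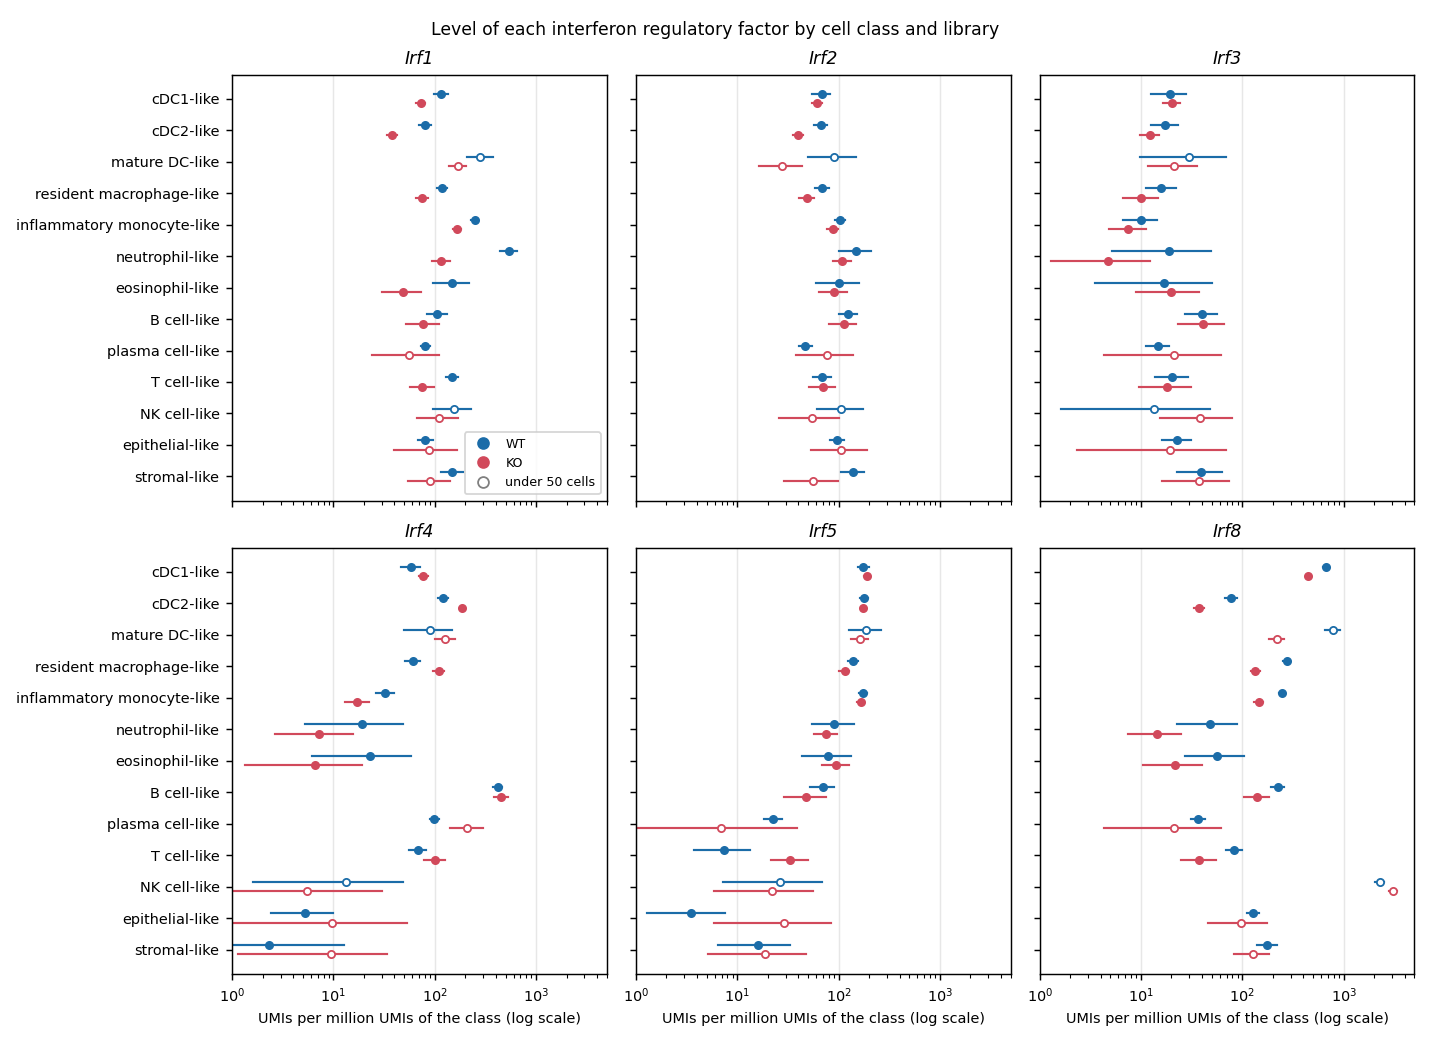
CPM (horizontal, log scale) of each of the 6 factors in 13 cell classes, with exact Poisson 95% intervals as bars, WT in blue and KO in red, and open circles for classes of under 50 cells. Over both libraries Irf8 spans the widest range on this scale, from 14.3 CPM in KO neutrophil-like cells to 3085 CPM in KO natural killer (NK) cell-like cells. Within WT, Irf4 (2.30 to 417 CPM) spans a wider range than Irf8 (36.5 to 2265 CPM). Irf4 peaks in B cell-like cells, and Irf3 is low throughout.

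Irf8 was highest in NK cell-like cells, at 2265 CPM (2031 to 2519) over 26 WT cells and 3085 CPM (2836 to 3349) over 41 KO cells. Every NK cell-like cell carried an Irf8 UMI, with 2 to 26 per cell in WT (median 13) and 1 to 29 in KO (median 12). All 7 NK markers, among them the cytotoxic gene Prf1 and the lineage factor Eomes, were detected in both libraries. Plasmacytoid dendritic cells are another cell type known for high Irf8, and 1 of their 6 markers was detected in the WT and 0 in the KO cells of this class, at a summed 6.64 and 0 CPM. Irf4 in the same cells amounted to 2 UMIs in WT and 1 in KO.

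Next to NK cell-like cells, Irf8 was highest in mature DC-like cells, with a WT level of 784 CPM (655 to 930) and a KO level of 219 CPM (184 to 257), and in cDC1-like cells, with 664 CPM (622 to 708) and 447 CPM (429 to 466). In the 20 WT mature DC-like cells, 5 cells held 72.5% of the Irf8 UMIs. cDC1-like cells stood above mature DC-like cells in KO, with a log2 ratio of 1.03 (0.79 to 1.29), while in WT the ratio was -0.24 (-0.51 to 0.04). Macrophages and monocytes, in which IRF8 supports monocyte development and microbicidal genes, were intermediate. Resident macrophage-like cells of WT had 277 CPM of Irf8 (255 to 299) and those of KO 134 CPM (121 to 148). For inflammatory monocyte-like cells the values were 246 CPM (228 to 265) and 145 CPM (132 to 159). B cell-like cells had 224 CPM (192 to 260) and 140 CPM (105 to 182). Levels were low in granulocytes, with 47.7 and 14.3 CPM in neutrophil-like and 56.8 and 21.8 CPM in eosinophil-like cells, on 10 to 12 UMIs each. In WT the lowest level was that of plasma cell-like cells, at 36.5 CPM (30.9 to 42.8) on 149 UMIs. At a median of 17358 UMIs a cell, 31.1% of these cells had an Irf8 UMI, against 8.64% of WT neutrophil-like cells at 2284.

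Irf8 was also counted outside the immune classes. WT stromal-like cells had 177 CPM (140 to 221), with a UMI in 55.0% of 80 cells, KO stromal-like cells had 127 CPM (83.7 to 185), and WT epithelial-like cells had 129 CPM (112 to 147). In WT epithelial-like cells 220 Irf8 UMIs stood beside 6 Irf5 and 9 Irf4 UMIs, WT inflammatory monocyte-like cells had 695, 496 and 91, and WT NK cell-like cells had 341, 4 and 2. The part of free RNA in the values of these classes was not tested.

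Irf4, needed for B cell activation and plasma cells, was highest in B cell-like cells in both libraries, with 417 CPM (373 to 465) for WT and 452 CPM (388 to 523) for KO. This level was separate from that of the next class in each library. KO plasma cell-like cells had 210 CPM (141 to 299) on 5 cells and were left out of the order. The cDC2-like cells came second, at 120 CPM (107 to 134) for WT and 187 CPM (177 to 197) for KO. In WT the cDC2-like level overlapped that of plasma cell-like cells (98.5 CPM, 89.1 to 109), and the plasma cell-like level in turn overlapped that of mature DC-like cells (89.8 CPM, 50.2 to 148). T cell-like (67.9 CPM), resident macrophage-like (60.8 CPM) and cDC1-like cells (58.0 CPM) followed in WT with overlapping intervals, and inflammatory monocyte-like cells lay below them at 32.2 CPM (26.0 to 39.6). Irf4 in neutrophil-like cells, a class that should lack it, was 19.1 CPM on 4 UMIs in WT and 7.14 CPM on 6 in KO.

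Irf5, the mediator of Toll-like receptor signalling to inflammatory cytokines, was highest in the dendritic and monocyte classes. In WT it was 186 CPM in mature DC-like, 180 in cDC2-like, 176 in inflammatory monocyte-like and 175 in cDC1-like cells, with overlapping intervals between neighbours. Resident macrophage-like cells followed at 138 CPM (123 to 154), an interval that touches that of cDC1-like cells (154 to 199). Neutrophil-like (90.7 CPM, 54.6 to 142) and eosinophil-like cells (79.5 CPM, 43.4 to 133) overlapped B cell-like cells (69.5 CPM, 52.2 to 90.7). T cell-like cells had 7.47 CPM (3.73 to 13.4). Epithelial-like cells were lowest in WT at 3.51 CPM.

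Irf1 was highest in WT neutrophil-like cells, at 535 CPM (440 to 643), where 5 of 81 cells held 42.0% of the 112 UMIs, followed by mature DC-like cells at 281 CPM (207 to 374) and inflammatory monocyte-like cells at 247 CPM (229 to 266). In KO the order began with mature DC-like cells at 168 CPM (138 to 203) and inflammatory monocyte-like cells at 165 CPM (151 to 180), and neutrophil-like cells followed at 115 CPM (93.6 to 141). Levels in cDC2-like cells were among the lowest, at 79.8 CPM (69.3 to 91.5) in WT, where plasma cell-like and epithelial-like cells had 80.8 CPM each, and at 37.7 CPM (33.4 to 42.4) in KO, which overlapped eosinophil-like cells (48.0 CPM, 30.1 to 72.7). Irf2 varied less. Its WT levels ran from 47.0 CPM in plasma cell-like to 148 CPM in neutrophil-like cells, and all neighbours in that order had overlapping intervals except the lowest pair. Irf3, which is present in most cell types as a latent protein, ran from 9.92 CPM in WT inflammatory monocyte-like cells to 39.9 CPM in B cell-like cells, and no pair of neighbours was separate in either library.

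**Figure D2:**
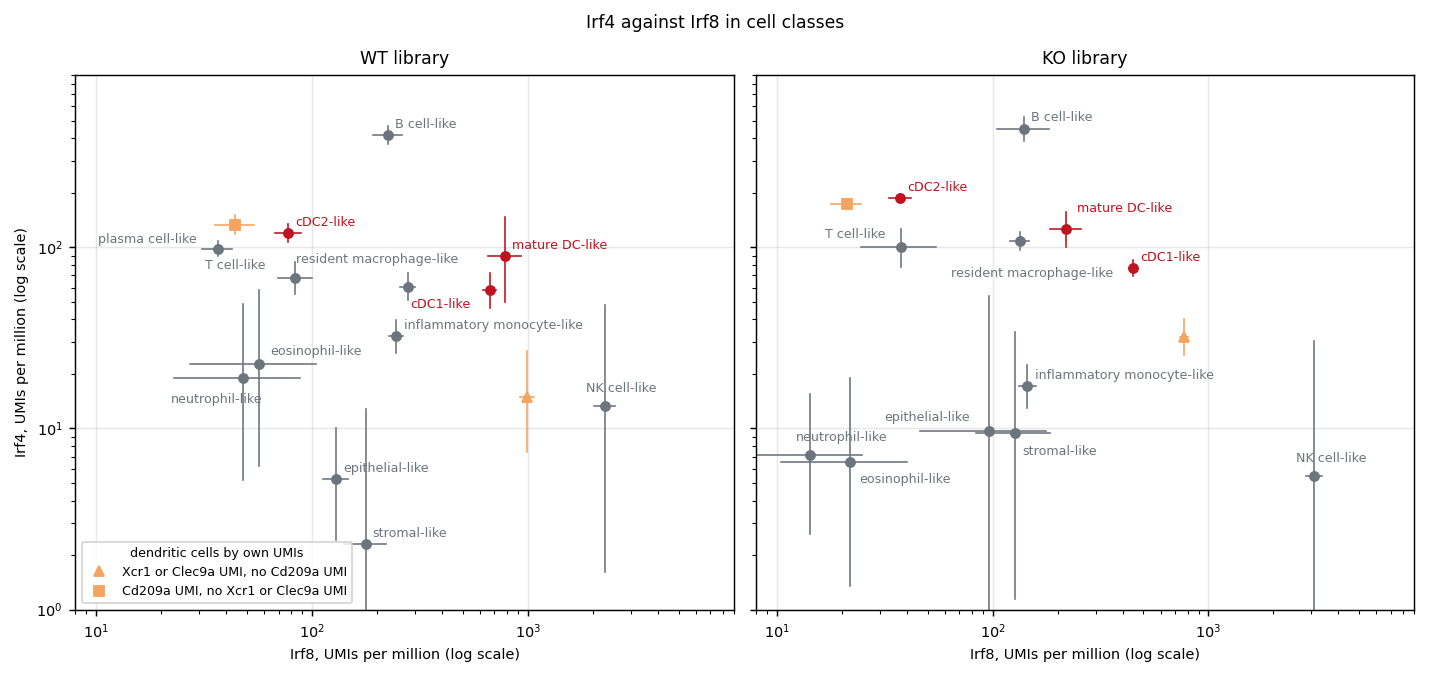
Irf4 (vertical) against Irf8 (horizontal) in CPM on log scales, one panel per library, with exact Poisson 95% intervals as bars. Dendritic cell classes are red, other classes grey, orange symbols are dendritic cells sorted by their own marker UMIs, and KO plasma cell-like cells (5 cells) are left out. cDC1-like cells lie at 664 (WT) and 447 (KO) CPM of Irf8 with less Irf4 than cDC2-like cells, and the orange symbols lie farther apart than the red ones.

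Irf8 and Irf4 divided the dendritic cell classes in opposite directions in both libraries. cDC1-like cells (112 WT and 288 KO) had 664 and 447 CPM of Irf8 against 77.5 CPM (67.1 to 89.0) and 37.3 CPM (33.1 to 42.0) in cDC2-like cells (244 and 498). The log2 ratio of cDC1-like to cDC2-like cells was 3.10 (2.88 to 3.33), or 8.57-fold, in WT and 3.58 (3.40 to 3.77), or 12.0-fold, in KO. By this ratio Irf8 ranked 101 from the top of 8599 genes with at least 20 UMIs in WT and 122 of 10374 in KO, where 8.78% and 14.5% of genes were at least 2-fold higher in cDC1-like cells. Irf4 was lower in cDC1-like cells, with a log2 ratio of -1.05 (-1.42 to -0.69) in WT and -1.28 (-1.44 to -1.12) in KO. It ranked 460 and 290 from the bottom, and 5.86% and 4.60% of genes were at least 2-fold lower. Both genes passed the 2-fold line in both libraries, Irf8 upward and Irf4 downward. With coarser clusters (resolution 0.5) Irf4 did not, at -0.25 in WT and -0.62 in KO.

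The other 4 members did not pass that line between these classes. Irf5 was level, with ratios of -0.04 (-0.27 to 0.19) in WT and 0.12 (-0.00 to 0.24) in KO. Irf1 was higher in cDC1-like cells by 0.53 (0.22 to 0.84) and 0.94 (0.71 to 1.17). Irf2 and Irf3 gave 0.02 and 0.15 in WT, with intervals that include 0, and 0.63 (0.40 to 0.87) and 0.72 (0.30 to 1.14) in KO. Expressed as a share of the summed Irf8 and Irf4 UMIs, Irf8 made up 92.0% (90.1 to 93.6%) for WT and 85.3% (83.9 to 86.6%) for KO cDC1-like cells, against 39.2% (35.0 to 43.6%) and 16.7% (14.9 to 18.5%) in cDC2-like cells. Mature DC-like cells, which have raised the migration receptor Ccr7, lay near cDC1-like cells in WT (89.7%, 83.6 to 94.1%) and between the classes in KO (63.3%, 56.6 to 69.6%).

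**Figure D3:**
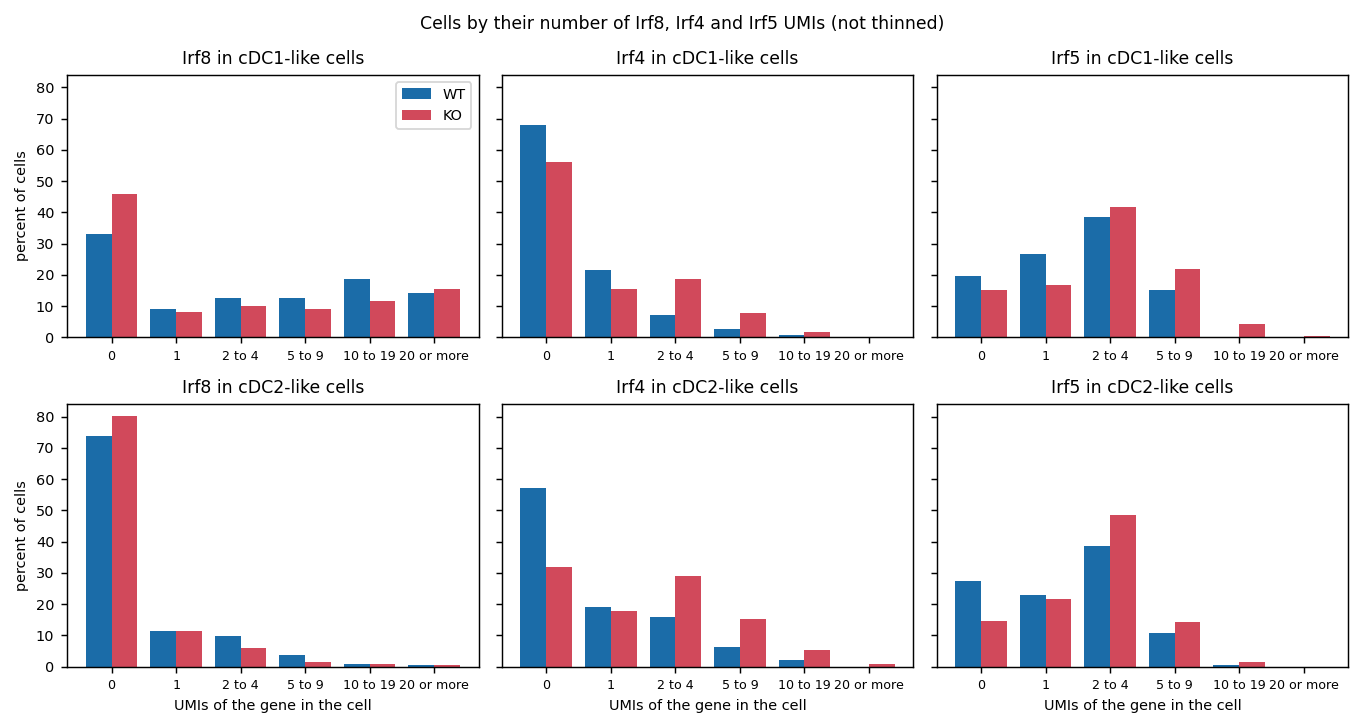
Percent of cells (vertical) by the number of UMIs of Irf8, Irf4 or Irf5 in the cell (horizontal), without thinning, in cDC1-like (upper) and cDC2-like (lower) cells, WT in blue and KO in red. Irf8 in cDC1-like cells is spread between 33.0% (WT) and 45.8% (KO) of cells with none and 14.3% and 15.6% with 20 or more, while Irf5 has 19.6% and 15.3% with none and at most 0.347% with 20 or more.

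Within the cDC1-like class Irf8 was unevenly spread over cells. In WT 33.0% and in KO 45.8% of these cells carried no Irf8 UMI, while the highest held 59 and 75. Irf5, which has a lower CPM in the same cells, was nevertheless detected in 80.4% of WT and 84.7% of KO cells against 67.0% (57.4 to 75.6%) and 54.2% (48.2 to 60.0%) for Irf8. The cells with no Irf8 UMI carried other markers. They had Cd209a, a C-type lectin of cDC2, at 515 CPM in WT (37 cells) and 559 CPM in KO (132 cells), with the cDC1 receptors Xcr1 and Clec9a at 5.54 CPM each in WT and at 3.85 and 3.30 CPM in KO. Zeb2, a repressor that opposes the cDC1 fate, was at 424 and 276 CPM and Irf4 at 99.7 and 137 CPM. Cells with at least 5 Irf8 UMIs (51 and 104) had the reverse, with Cd209a at 0 and 15.6 CPM, Xcr1 at 177 and 109 CPM, Clec9a at 93.7 and 76.6 CPM, Zeb2 at 32.1 and 50.5 CPM and Irf4 at 34.6 and 20.2 CPM. Other genes of the marker list used here for the cDC2-like class did not all follow Cd209a. From cells with no Irf8 UMI to those with at least 5, Plet1 went from 19.4 to 98.8 CPM in WT. In KO it went from 63.2 to 19.8 CPM. Zbtb46 went from 24.9 to 43.6 CPM in WT and from 30.8 to 35.3 CPM in KO, with overlapping intervals. The labelled class therefore held cells that carry the cDC2 marker Cd209a, and levels for cDC1-like cells are means over both kinds.

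Dendritic cells were for this reason also divided by their own UMIs, a division chosen after seeing the data. Of cDC1-like cells, 37.5% in WT and 36.1% in KO had a UMI of Xcr1 or Clec9a and none of Cd209a, and 27.7% and 41.7% had the opposite pattern. Over both classes, 47 WT and 116 KO cells had Xcr1 or Clec9a only, and 200 and 498 cells had Cd209a only. Irf8 was 995 CPM (924 to 1070) and 772 CPM (738 to 808) in the first set and 44.1 CPM (35.6 to 54.1) and 21.1 CPM (17.9 to 24.7) in the second. The log2 ratio rose to 4.50 (4.18 to 4.82), or 22.6-fold, in WT and to 5.19 (4.96 to 5.44), or 36.6-fold, in KO. Irf8 had a UMI in 93.6% and 93.1% of the first set and in 22.0% and 17.7% of the second. Irf4 was 15.0 CPM and 32.0 CPM in the first set and 133 CPM and 174 CPM in the second, which gave ratios of -3.16 (-4.17 to -2.29) and -2.44 (-2.79 to -2.11). Irf5 remained within 0.28 of level in both libraries. Irf1, higher in cDC1-like cells by class, had ratios of -0.62 (-1.09 to -0.18) in WT and 0.26 (-0.02 to 0.54) in KO under this division, so its direction in WT depended on which cells were counted. Median depth was 15378 and 19868 UMIs in the first set and 10011 and 14308 in the second.

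Single cells were also scored for both transcripts. With each cell thinned to 1000 UMIs, which left out 4 WT and 2 KO cDC1-like cells, the cDC1-like cells with Irf8 alone were 29.6% (21.2 to 39.2%) in the WT library and 24.8% (19.9 to 30.3%) in the KO library, those with Irf4 alone were 3.70% and 5.59%, and both were found in 1 cell of each library (0.926% and 0.350%). Thinning left out 2 WT and 1 KO cDC2-like cells, and in this class Irf8 alone was found in 8.26% (5.12 to 12.5%) and 2.62% (1.40 to 4.43%), Irf4 alone in 9.09% (5.79 to 13.4%) and 14.1% (11.1 to 17.5%), and both in 1 cell of each library. Thinned to 2000 UMIs, both were found in 4.63% of WT and 1.06% of KO cDC1-like and in 1.28% and 1.21% of cDC2-like cells. Thinning itself lowers the share with both, so its size is not read as a result. Unthinned, both transcripts were found in 18.8% of WT and 17.4% of KO cDC1-like and in 9.02% and 14.5% of cDC2-like cells. In thinned neutrophil-like cells, a background class, Irf4 had a UMI in 1.30% and 0.784% and Irf8 in 3.90% and 1.96%. Without thinning, Irf8 stood at 37.3 CPM (33.1 to 42.0) in KO cDC2-like and 14.3 CPM (7.38 to 24.9) in KO neutrophil-like cells. In WT the 2 intervals overlapped, with 77.5 CPM (67.1 to 89.0) and 47.7 CPM (22.9 to 87.8).

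Subsets of each class were compared in the same way. In KO, a cDC2-like cluster led by Ccl17 and Mgl2, called the Cd209a subset here (118 cells), had Irf8 at 12.4 CPM (7.77 to 18.8) and Irf4 at 258 CPM (235 to 283). The cDC2-like cluster led by Plet1, the Plet1 subset (380 cells), had 45.2 CPM (39.8 to 51.1) and 164 CPM (154 to 175). Cd209a was among the leading genes of both clusters. The Irf8 interval of the Cd209a subset overlapped that of KO neutrophil-like cells (7.38 to 24.9 CPM). The log2 ratio of the Plet1 to the Cd209a subset was 1.87 (1.24 to 2.57) for Irf8 and -0.65 (-0.81 to -0.49) for Irf4. The WT library held only 3 cells of the Cd209a subset, so it gave no such contrast. A cluster of cycling cells made up 27 WT and 103 KO of the cDC1-like cells. Irf4 was higher there than in the other cDC1-like cells, 85.3 against 41.4 CPM in WT and 99.8 against 53.3 CPM in KO, with log2 ratios of the other to the cycling cells of -1.04 (-1.72 to -0.38) and -0.91 (-1.22 to -0.60). In WT 82.2% of the 45 Irf4 UMIs of cycling cells lay in 5 cells, and 1 cell held 17. Irf8 was 688 against 649 CPM in WT, a ratio of -0.08 (-0.28 to 0.11), and 387 against 510 CPM in KO, a ratio of 0.40 (0.28 to 0.52).

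A list of partners and lineage factors of IRF4 and IRF8 was read in the same contrast. Of 12 listed, 4 (Spib, Batf, Zeb2 and Prdm1) were at least 2-fold lower in WT cDC1-like cells and none was higher, where 5.86% and 8.78% of all genes were. In KO, Batf, Zeb2, Zbtb46 and Prdm1 were at least 2-fold lower and Batf3 was higher, against 4.60% and 14.5% of all genes. Batf3, the AP-1 factor that sustains Irf8 expression in cDC1, had log2 ratios of 0.93 (0.60 to 1.27) and 1.19 (0.98 to 1.40). Prdm1 had -3.03 (-4.06 to -2.15) and -1.97 (-2.31 to -1.65), Zeb2 -1.03 (-1.25 to -0.82) and -1.23 (-1.34 to -1.11), and Batf, a partner of IRF4, -1.18 (-1.81 to -0.60) and -1.06 (-1.30 to -0.82). Spi1, which encodes PU.1, was near level at -0.18 (-0.35 to -0.02) and 0.08 (-0.01 to 0.18). Zbtb46 was among the markers that defined the cDC2-like class.

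Between the libraries, the members were compared within the 8 classes that had at least 50 cells in each. Of the 48 values, 44 had at least 20 UMIs. Among these, 8 were at least 2-fold lower in KO and 1 was at least 2-fold higher, where 9.33% and 4.52% of all gene-by-class values were. The counting interval lay below 0 for 19 of the 48 values, above 0 for 5 and included 0 for 24. All of these 19 and 5 were among the 44, and over all genes with at least 20 UMIs 22.9% of values lay below 0 and 10.6% above 0 by the same interval, which narrows as a gene's UMIs increase. Over all genes the median log2 ratio was below 0 in 7 classes, from -0.23 in cDC2-like to -0.11 in B cell-like cells, and 0.04 in eosinophil-like cells.

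**Figure D4:**
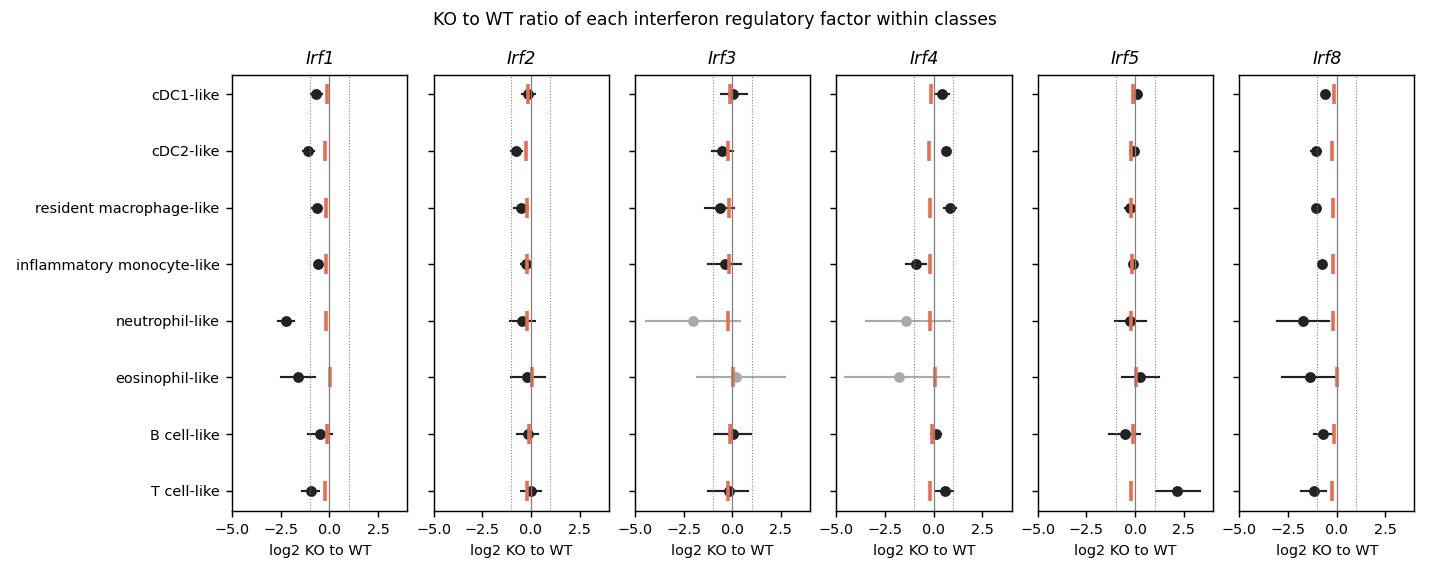
Log2 ratio of KO to WT CPM (horizontal) for each factor in 8 cell classes, with 95% counting intervals as bars. Grey points rest on fewer than 20 UMIs, the orange ticks mark the median of all genes in the class and dotted lines mark 2-fold. Irf1 and Irf8 lie left of the tick in all 8 classes, Irf4 lies right of it in 5, and Irf5 lies far right only in T cell-like cells (2.16).

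Irf1 was lower in KO in 7 of 8 classes by its interval, where from 9.16% (eosinophil-like) to 32.8% (cDC2-like) of all genes in a class were. The log2 ratio in B cell-like cells was -0.47 (-1.12 to 0.15). It fell at least 2-fold in neutrophil-like cells (535 to 115 CPM, -2.21, -2.62 to -1.81), eosinophil-like cells (148 to 48.0 CPM, -1.62, -2.51 to -0.74) and cDC2-like cells (79.8 to 37.7 CPM, -1.08, -1.34 to -0.81). At least 2-fold lower were 15.0%, 5.88% and 9.42% of all genes in these classes. The ratio was -0.97 in T cell-like, -0.58 in inflammatory monocyte-like, -0.65 in resident macrophage-like and -0.67 in cDC1-like cells. Counted over the Xcr1 or Clec9a set alone, the last ratio was -0.16 (-0.63 to 0.33), with an interval that includes 0. In neutrophil-like cells the summed levels of the resident macrophage and inflammatory monocyte markers also differed, 812 against 310 CPM and 1122 against 567 CPM, and in eosinophil-like cells those of the resident macrophage and plasma cell markers were 431 against 72.0 CPM and 619 against 17.5 CPM. In cDC2-like cells the inflammatory monocyte markers were 1841 against 590 CPM. Their part in the Irf1 values was not tested.

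Irf8 was likewise lower in 7 of 8 classes by its interval, where from 13.3% (B cell-like) to 32.8% (cDC2-like) of all genes in a class were. Its inflammatory monocyte-like value turned to 0.16 within the cluster that both libraries share. It was at least 2-fold lower in 5 classes, namely resident macrophage-like (-1.04, -1.23 to -0.86), cDC2-like (-1.05, -1.32 to -0.78), T cell-like (83.6 to 37.5 CPM, -1.15, -1.81 to -0.54), neutrophil-like (-1.74, -3.08 to -0.37) and eosinophil-like cells (-1.38, -2.80 to 0.04). Both granulocyte values rest on 20 to 22 UMIs and the last interval includes 0. Over the alternatives in processing, Irf8 ran from -1.24 to -0.66 in resident macrophage-like and from -3.40 to -0.49 in cDC2-like cells. It ran from -1.81 to -0.66 in T cell-like and from -4.43 to -0.92 in eosinophil-like cells. The 2-fold call was thus not kept under each alternative in these classes. In neutrophil-like cells the range was -3.20 to -1.69. In T cell-like cells the summed level of 7 NK markers went from 10217 to 40.3 CPM, and in cDC2-like cells that of 6 inflammatory monocyte markers went from 1841 to 590 CPM, and their part in the Irf8 values was not tested. Of all genes, 8.25% in resident macrophage-like and 14.5% in T cell-like cells were at least 2-fold lower. Irf8 was lower by less than 2-fold in inflammatory monocyte-like (-0.76), B cell-like (-0.68) and cDC1-like cells (-0.57), where 9.70%, 10.7% and 4.10% of genes passed that line.

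Irf4 went the other way in part of the classes, and no value with at least 20 UMIs passed 2-fold. On 3 to 6 UMIs a library, the ratio was -1.42 (-3.50 to 0.85) in neutrophil-like and -1.79 (-4.57 to 0.77) in eosinophil-like cells. It was higher in KO resident macrophage-like cells (60.8 to 109 CPM, log2 ratio 0.84, 0.54 to 1.14), cDC2-like (0.64, 0.46 to 0.82), T cell-like (0.56, 0.10 to 1.01) and cDC1-like cells (0.41, 0.06 to 0.77, but -0.25 with cells classed by marker score), and lower in inflammatory monocyte-like cells (32.2 to 17.2 CPM, -0.91, -1.42 to -0.41). By the same interval, from 8.42% (cDC1-like) to 12.3% (resident macrophage-like) of all genes were higher in the first 4 classes. In inflammatory monocyte-like cells 27.5% were lower by it. The share of genes at least 2-fold higher, a line that Irf4 did not pass, was 4.65%, 4.55%, 4.99% and 4.25% in the first 4 classes. In inflammatory monocyte-like cells 9.70% were at least 2-fold lower and 3.29% higher. In B cell-like cells, where Irf4 is highest, the ratio was 0.12 (-0.16 to 0.38), and 2.01% of genes were at least 2-fold higher. In resident macrophage-like cells the Irf8 share of both factors went from 82.0% (79.1 to 84.6%) to 55.3% (51.4 to 59.1%), whereas inflammatory monocyte-like cells had 88.4% and 89.4%. The summed level of 9 cDC2 markers in resident macrophage-like cells went from 350 to 971 CPM, the inflammatory monocyte markers in cDC2-like cells from 1841 to 590 CPM and the NK markers in T cell-like cells from 10217 to 40.3 CPM, and their part in the Irf4 values was not tested.

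Several of these values moved with the cluster makeup of the class. Of the resident macrophage-like cells, one cluster led by Mmp13 and the C1q genes held 422 WT and 142 KO cells, and another led by Retnla held 18 and 144. Irf4 in the second was 135 CPM in WT and 151 CPM in KO, against 56.2 and 46.9 CPM in the first, so within the first cluster the KO to WT log2 ratio was -0.26 (-0.75 to 0.22). Irf8 in the first cluster was 291 and 184 CPM (-0.66, -0.89 to -0.43), and in the second 52.4 CPM on 7 UMIs and 99.8 CPM on 164. Of the inflammatory monocyte-like cells, 421 WT and 98 KO cells lay in one cluster, where Irf8 was 255 CPM in WT and 285 CPM in KO (0.16, -0.08 to 0.40, with 52.4% of the KO UMIs in 5 cells), and 30 and 276 lay in another led by Chil3 and Ace with 122 and 110 CPM. In the Plet1 subset of cDC2-like cells Irf8 (-0.78), Irf1 (-1.19) and Irf4 (0.45) kept their directions. The non-cycling cDC1-like cluster gave -0.35 (-0.49 to -0.20) for Irf8, and its Irf4 interval included 0. For dendritic cells divided by their own markers, Irf8 had a KO to WT log2 ratio of -0.37 (-0.49 to -0.24) in the Xcr1 or Clec9a set and -1.06 (-1.44 to -0.68) in the Cd209a set, and Irf4 was higher by 1.10 (0.18 to 2.16) and 0.39 (0.20 to 0.58).

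Irf2, Irf3 and Irf5 differed less between the libraries. Irf2 was lower in cDC2-like (-0.75, -1.02 to -0.47), resident macrophage-like (-0.51, -0.85 to -0.17) and inflammatory monocyte-like cells (-0.26, -0.50 to -0.02), and the other 5 intervals included 0. By the same interval, 32.8%, 26.4% and 27.5% of all genes were lower in these classes. The inflammatory monocyte-like value of Irf2 turned to 0.08 within the cluster that both libraries share. The interval of Irf3 included 0 in every class. Irf5 was within 0.11 of level in cDC1-like, cDC2-like and inflammatory monocyte-like cells. It was lower in resident macrophage-like cells (-0.27, -0.50 to -0.04), where 26.4% of all genes were lower by the same interval. The single value at least 2-fold higher in KO was Irf5 in T cell-like cells, with 11 WT and 24 KO UMIs (7.47 to 33.4 CPM, 2.16, 1.07 to 3.34). In KO 75.0% of these UMIs lay in 5 cells, and the myeloid genes Cst3 (97.8 to 895 CPM) and Spi1 (4.08 to 41.7 CPM) moved with it. The summed level of the 9 cDC2 markers in T cell-like cells was 35.3 CPM in WT and 246 CPM in KO, with 5 and 8 detected. The part of myeloid RNA in this value was not tested, and the ratio was 1.01 with the highest 3% of doublet scores removed. T cell-like clusters also differed in weight, since a cluster led by Gzma and Gzmb held 143 of 242 WT and 33 of 109 KO cells, with Irf8 at 104 and 28.8 CPM. Irf4 in that cluster was 52.8 (WT) and 48.0 CPM (KO). The other T cell-like clusters had Irf4 at 112 and 84.5 CPM (72 and 45 cells) and at 67.4 and 183 CPM (27 and 31 cells). The higher Irf4 of KO T cell-like cells was thus not found in each cluster. Irf8 in these other clusters stood at 48.7 and 47.0 CPM on 17 and 15 UMIs, and at 16.9 and 31.4 CPM on 2 and 6. The lower Irf8 of KO T cell-like cells was likewise not found in each cluster.

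The pathway genes around the family were read in the same 8 classes from fixed lists. Irf7, the interferon-induced family member that amplifies interferon-alpha production, had a KO to WT log2 ratio of -2.45 (-2.86 to -2.06) in resident macrophage-like cells, and the ratio was -3.27 (-3.73 to -2.82) for cDC2-like and -1.67 (-2.08 to -1.25) for cDC1-like cells. In inflammatory monocyte-like cells it was 239 CPM in WT and 171 CPM in KO (-0.48, -0.65 to -0.32). Irf9, the DNA-binding subunit of the ISGF3 complex, had -1.06 (-1.39 to -0.74) in cDC2-like cells, and in resident macrophage-like cells -1.58 (-2.03 to -1.15). With these values moved the inflammatory monocyte markers of cDC2-like cells (1841 to 590 CPM) and of cDC1-like cells (1328 to 608 CPM). The cDC2 markers of resident macrophage-like cells (350 to 971 CPM) and the cluster makeup of that class given above moved too. The part of these shifts was not tested.

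**Figure D5:**
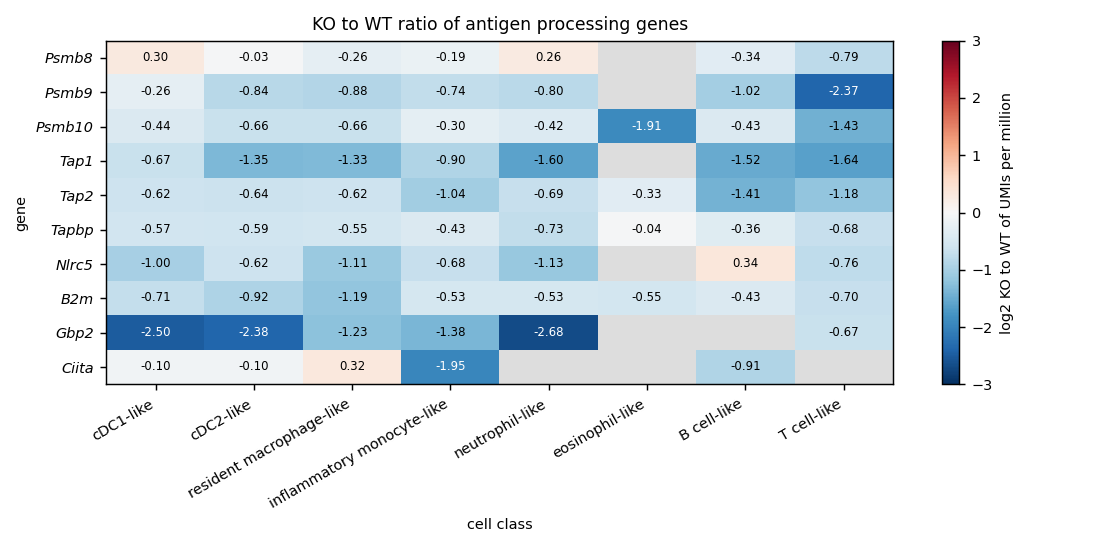
Log2 ratio of KO to WT CPM of the 10 genes of a list of IRF1 and IRF2 targets in antigen processing (rows) in 8 cell classes (columns). The list includes the GTPase Gbp2. Blue is lower and red higher in KO, with the value written in each cell. Grey marks fewer than 20 UMIs or a library with none. Most cells are blue, with the lowest values for Gbp2 (-2.68 in neutrophil-like cells) and Psmb9 (-2.37 in T cell-like cells).

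Genes of a list of IRF1 and IRF2 targets in antigen processing passed 2-fold in the lower direction only. In each of the 8 classes 1 to 4 were at least 2-fold lower and none was at least 2-fold higher. The list also holds the GTPase Gbp2, which is not itself an antigen processing gene. In cDC1-like cells Gbp2 was the only gene past 2-fold. Of all genes, from 4.10% in cDC1-like to 15.0% in neutrophil-like cells were at least 2-fold lower, and the counts of 1 of 10 in cDC1-like and 2 of 10 in cDC2-like cells (9.42%) lie close to that background. Single genes went against this below 2-fold, such as Ciita, the class II transactivator, in resident macrophage-like cells (0.32, 0.02 to 0.63). In resident macrophage-like cells 4 of 10 were at least 2-fold lower, B2m, the light chain of MHC class I (4541 to 1996 CPM, -1.19, -1.23 to -1.14), the peptide transporter subunit Tap1 (-1.33, -1.63 to -1.04), the GTPase Gbp2 (-1.23, -1.55 to -0.92) and the class I transactivator Nlrc5 (-1.11, -1.86 to -0.39). The list's median log2 ratio there was -0.77 against -0.19 for all genes. In inflammatory monocyte-like cells Gbp2 (-1.38), Tap2 (-1.04) and Ciita (-1.95) were lower, with a list median of -0.71. The makeup of this class changed too, from 421 to 98 cells in one cluster and from 30 to 276 in that led by Chil3 and Ace, and the resident macrophage markers went from 3797 to 1770 CPM. Their part in these values was not tested. In cDC2-like cells Tap1 (-1.35) and Gbp2 (-2.38) and in cDC1-like cells Gbp2 (-2.50) were lower, with list medians of -0.65 and -0.59. The inflammatory monocyte markers went from 1841 to 590 CPM in cDC2-like and from 1328 to 608 CPM in cDC1-like cells. Their part in these values was not tested. T cell-like cells had 4 of 9 lower, Tap2, Psmb10, Tap1 and Psmb9 (-1.18, -1.43, -1.64 and -2.37), beside Ifng, which encodes interferon-gamma and went from 177 to 38.9 CPM (-2.19, -2.81 to -1.62). The NK markers (10217 to 40.3 CPM) and the cluster led by Gzma and Gzmb (143 of 242 to 33 of 109 cells) moved with these values, and their part was not tested. Neutrophil-like cells had 3 of 9, B cell-like cells 4 of 10 and eosinophil-like cells 1 of 4 lower. At least 2-fold higher among all genes were 6.37% in neutrophil-like and 8.62% in eosinophil-like cells.

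Interferon-stimulated genes passed 2-fold in both directions. In resident macrophage-like cells 5 of 10 were at least 2-fold higher in KO and 2 were lower, where 4.65% and 8.25% of all genes were. The clusters and the cDC2 markers (350 to 971 CPM) that shifted in this class are given above, and their part in these counts was not tested. The higher genes were led by the chemokine Cxcl10 (370 to 1083 CPM, 1.55, 1.44 to 1.66), the ubiquitin-like protein Isg15 (150 to 440 CPM, 1.55, 1.38 to 1.73) and Oasl1 (72.3 to 344 CPM, 2.25, 2.01 to 2.50), and Oas3 was lower (-1.98, -2.86 to -1.18). In cDC2-like cells Oasl1 (2.10) and Ifit1 (2.75) were higher and Usp18, Oas3 and Ifit3 were lower. Ifit1 is among the leading genes of the Cd209a subset, which held 3 WT and 118 KO cells, and the part of that makeup was not tested. In cDC1-like cells 4 of 9 were lower and none was higher, against 4.10% and 4.25% of all genes. The inflammatory monocyte markers of cDC1-like cells went from 1328 to 608 CPM and the B cell markers from 112 to 6.08 CPM. The share of these cells with Cd209a only went from 27.7% to 41.7%. The part of these shifts was not tested. In inflammatory monocyte-like cells none of 10 passed 2-fold in either direction. Of the genes with at least 20 UMIs, 1 of 6 was higher and 2 were lower in T cell-like cells (4.99% and 14.5% of all genes), 1 of 9 was lower in neutrophil-like cells, no more than the 15.0% of all genes, the single one was lower in B cell-like cells and none of 3 passed in eosinophil-like cells. The difference from the antigen processing list was not tested. Ifnb1, which encodes the interferon-beta that IRF3 and other family members induce, had 0 UMIs in WT and 416 UMIs (150 CPM) in KO resident macrophage-like cells, at least 114-fold higher against a floor of 3 UMIs in that class. It went from 2 to 184 UMIs in cDC2-like cells and from 2 to 125 in inflammatory monocyte-like cells.

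The KO resident macrophage-like cells with an Ifnb1 UMI (67) and without one (219) were compared for the members. Irf8 was 163 CPM (135 to 196) in the first and 124 CPM (109 to 140) in the second, Irf4 was 75.3 CPM (56.4 to 98.5) and 120 CPM (105 to 136), and Irf1 was 52.6 CPM (37.0 to 72.4) and 82.6 CPM (70.7 to 96.0). The 2 intervals of Irf4 did not overlap, and those of Irf8 and Irf1 overlapped narrowly. Irf3 (12.8 and 9.18 CPM), the member named above for induction of this gene, and Irf5 (111 and 116 CPM) overlapped widely. All of these cells come from 1 library. Median depth was 9936 UMIs in the cells with an Ifnb1 UMI and 8343 in those without. Irf4 and Irf8 also differed between the clusters of this class given above. The part of cluster makeup and of depth in these values was not tested.

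Of the sensors and adaptors that feed IRF3 and IRF5, Tmem173, which encodes STING, was at least 2-fold lower in KO resident macrophage-like (-1.07), inflammatory monocyte-like (-1.29), cDC2-like (-1.21), B cell-like (-2.02) and T cell-like cells (-1.29), where 8.25%, 9.70%, 9.42%, 10.7% and 14.5% of all genes were. The B cell-like value rests on 24 WT and 3 KO UMIs, and the neutrophil markers of that class went from 1085 to 63.5 CPM. The part of these and of the marker and cluster shifts given above for the other classes was not tested. Ifih1, which encodes the RNA sensor MDA5, was higher in resident macrophage-like (53.7 to 174 CPM, 1.70) and cDC2-like cells (1.16), and lower by less than 2-fold in inflammatory monocyte-like (-0.59, -0.91 to -0.27) and cDC1-like cells (-0.55, -1.06 to -0.01). Of the 6 IRF8-linked genes, Il12b, a subunit of interleukin-12, was higher in KO cDC1-like (3.58 to 60.6 CPM, 4.08, 2.84 to 5.71), cDC2-like (9.30 to 96.6 CPM, 3.38, 2.79 to 4.03) and inflammatory monocyte-like cells (4.03, 2.07 to 7.13, from 2 WT UMIs). In resident macrophage-like cells it was lower (40.5 to 27.0 CPM, -0.58, -1.04 to -0.13). Il12b and Ifit1 are among the leading genes of the Cd209a subset of cDC2-like cells, which held 3 WT and 118 KO cells, and the part of that makeup in the cDC2-like values was not tested. In cDC1-like, cDC2-like and inflammatory monocyte-like cells Il12b was the only gene of its list past 2-fold. The list medians there were -0.28, -0.30 and -0.10, and 4.25%, 4.55% and 3.29% of all genes were at least 2-fold higher. The share of cDC1-like cells with Cd209a only went from 27.7% to 41.7%, and its part in the cDC1-like value was not tested.

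The genes whose levels followed each member across the 8 classes were named by the lower of the Pearson correlations of log2(CPM + 10) in the WT and KO libraries, over 4424 genes. With 8 classes that share libraries these are descriptions. For Irf4 the closest was Bach2, a B cell repressor (0.96 in WT and 0.93 in KO), followed by Trmt1 and Gnl3. For Irf8 they were Sumo3 (0.88 and 0.88), Plekho1 and Pi4k2a, for Irf5 the lysosomal genes Stx7 (0.88 and 0.89) and Psap with 5031439G07Rik, and for Irf1 Tet3 (0.88 and 0.91), H3f3b and the interferon-stimulated gene Oas3. For Irf2 they were Xpr1, Atf7ip and Sorl1, and for Irf3, which did not reach the 50 CPM minimum itself, Rbm5, Ppan and Phip. Among the members the highest pairs were Irf3 with Irf4 (0.77 and 0.62) and Irf1 with Irf2 (0.70 and 0.53), and Irf4 with Irf8 gave 0.30 and 0.41.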

How the data were processed

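The deposited matrices hold whole UMI counts that the authors made with Cell Ranger 3.0.2 per the file headers, and the submitters' processing notes name mm10 and Seurat 4. Barcodes numbered 3185 (WT) and 3020 (KO), with 22191774 and 23384895 UMIs in all. Cells with 200 to 6000 genes and at most 15% mitochondrial UMIs were kept, the filter of the study. Scrublet called 1 WT and 9 KO cells, too few to be usable, so no doublets were removed in the main analysis. Cells were clustered (2000 variable genes without interferon regulatory factors and pathway genes, 30 components, 15 neighbours, Leiden resolution 1, scanpy 1.11.5, leidenalg 0.10.2, scikit-learn 1.9.0, scipy 1.17.1, Python 3.11.15), where the study used DESC. A cluster was called X-like when at least 3 markers were raised 2-fold, and class names are thus rebuilt here. CPM have exact Poisson, ratios exact conditional binomial and shares Clopper-Pearson intervals, all covering counting error only. A gene was called at 2-fold with at least 20 UMIs over both groups. The members, lists and contrasts were chosen with earlier results of these data known. Named genes are the members, list genes past 2-fold with the most UMIs (up to 4 a class) and the 3 genes most alike, and further ones were named after their values were seen. The intervals were checked on simulated Poisson counts, the model they assume. That check could not show error from UMIs gathered in few cells. Alternatives changed clustering, filter, doublets, scaling and thresholds. Some genes of the fixed lists are not reported here.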

Additional observations from a re-analysis of the deposited data

Results flagged for a closer look

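The KO to WT log2 ratio of Irf4 had opposite signs, with both counting intervals excluding 0, in inflammatory monocyte-like cells (-0.91) and 4 other classes. The difference from inflammatory monocyte-like cells was 1.74 for resident macrophage-like, 1.55 for cDC2-like, 1.47 for T cell-like and 1.32 for cDC1-like cells. Irf5 differed by 2.42 between T cell-like (2.16) and resident macrophage-like cells (-0.27). None of these differences was tested, as there is a single library of each genotype. The resident macrophage-like value of Irf4 turned to -0.26 within the cluster that both libraries share, and the cDC1-like value to -0.25 with cells classed by marker score. Of the inflammatory monocyte-like clusters, one (421 WT and 98 KO cells) had Irf4 at 33.8 and 20.0 CPM and another (30 and 276 cells) at 10.7 and 16.5 CPM, the 10.7 CPM resting on 2 UMIs.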

How the results depend on the processing

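No paired analysis was possible because each genotype has 1 library. No sign of the cDC1-like to cDC2-like ratios of Irf8 and Irf4 turned under 12 alternatives in WT and 13 in KO. In WT, Irf8 (3.10) moved to 1.65 at resolution 0.5, 3.39 with 4000 variable genes, 3.34 with interferon regulatory factors and pathway genes allowed, 3.40 with a stricter cell filter, 3.63 with cells classed by marker score and 4.50 with cells divided by their own markers. Irf4 in WT (-1.05) moved to -0.25, -1.49, -1.71, -1.78 and -3.16 with resolution 0.5, those genes allowed, the stricter filter, the marker score and own markers, and to -1.53 with shared clusters alone or without cycling cells. In KO, Irf8 (3.58) moved to 1.31 at resolution 0.5, 4.68 with the library clustered alone, 4.10 with 4000 genes, 4.12 with the stricter filter, 4.27 without the top 3% of doublet scores, 4.87 by marker score, 3.77 without cycling cells and 5.19 by own markers. Irf4 in KO (-1.28) moved to -0.62, -1.45, -1.48, -1.53, -2.57, -1.63, -1.81 and -2.44 with resolution 0.5, the library alone, 4000 genes, the stricter filter, the marker score, shared clusters, no cycling cells and own markers. Resolution 0.5 left only 27 WT and 103 KO cells in the cDC1-like class, and the WT library clustered alone gave no such class and no value. The count of values at least 2-fold lower in KO (8) was 5 with interferon regulatory factors and pathway genes allowed, 5 at a minimum of 50 UMIs, 16 at 1.5-fold and 5 with shared clusters, and the count higher (1) was 2 by marker score, 0 at 50 UMIs, 3 at 1.5-fold and 0 with shared clusters. Of 574 alternative KO to WT values 37 moved beyond the counting interval. Among those whose interval excluded 0, the sign turned for Irf4 in resident macrophage-like (-0.26), Irf2 (0.08) and Irf8 (0.16) in inflammatory monocyte-like cells with shared clusters, and for Irf4 in cDC1-like cells (-0.25) by marker score. Of 24 alternative shares of cells with a UMI 17 moved. The cause of these changes was not tested. The divisions by shared clusters, cycling cells and own markers were chosen after seeing the data. Depth limits values on few UMIs, such as Irf4 in NK cell-like cells with 2 in WT and 1 in KO.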

Other observations

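Cells that stayed unnamed had a median of 1184 UMIs in WT (152 cells) and 844 in KO (78 cells). Irf8 in them stood at 123 CPM for WT (99.4 to 151) and 95 CPM for KO (49.1 to 166), and Irf1 at 109 CPM (86.2 to 135) and 135 CPM (78.4 to 216). Irf4 was 16.1 CPM (8.31 to 28.1) among WT and 87.1 CPM (43.5 to 156) among KO cells, and Irf5 was 12.1 CPM (5.51 to 22.9) and 103 CPM (54.8 to 176), on 9 to 13 UMIs in each case. These cells came from 2 clusters, and a cluster with raised epithelial genes such as Muc2 and Zg16 held 26 WT and 2 KO of them. In the other cluster (126 and 76 cells) Irf4 was 61.7 CPM (29.6 to 114) for WT and 118 CPM (59.1 to 212) for KO, Irf5 was 55.5 CPM (25.4 to 105) and 140 CPM (74.4 to 239), and Irf8 was 278 CPM (203 to 372) and 118 CPM (59.1 to 212).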
